A study of Danio rerio with 4 samples.

Results

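Gap junctions are clusters of channels that join the cytoplasm of neighbouring cells and pass ions and small molecules between them. Each cell contributes a hemichannel built of connexin proteins, and the connexins that a cell makes set which neighbours it can couple to and how well. In the heart, connexins carry the action potential from one cardiomyocyte (CM) to the next, and in vessels they couple endothelial cells (ECs) with each other and with mural cells. Zebrafish carry many connexin genes, some of them kept as pairs or as clusters of neighbouring copies.

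The connexins described here were all genes of the count files whose symbol starts, in lower case, with cx or with gja, gjb, gjc, gjd or gje followed by a digit. The rule found 33 connexin genes among 36351 genes. They were measured by single-cell RNA sequencing of wild-type (WT) zebrafish ventricles of the AB strain, taken at 4 stages of coronary vessel growth. The initiation library came from 25 pooled ventricles of fish of 10 mm (1.5 months old), the establishment library from 18 of 14 mm (2 months), the expansion library from 12 of 18 mm (2.5 months) and the maturation library from 5 of 28 mm (8 months). Each stage was 1 library from 1 pool, so fish cannot be told apart, no test between stages was possible and no p-value is given. All 4 libraries carried the same batch label.

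The libraries held between 115624753 and 161798583 unique molecular identifiers (UMIs, each standing for 1 captured RNA molecule). Barcodes with at least 2500 UMIs and 600 genes were taken as cells, which gave 33503 barcodes, between 6663 and 12296 per library, with median UMIs between 5215 and 13251.5. Of these, 27647 (82.5%) passed the marker gate of exactly 1 cell class. Pairs of libraries shared between 9 and 32 of the selected barcodes. Barcodes with markers of several classes, which include doublets, were left out (283, 584, 1255 and 1204 in order of stage). Levels (CPM) are UMIs of a gene per 1000000 UMIs of a class in 1 library, and every interval is an exact 95% interval (Poisson for a level, binomial for a share or a ratio) that covers counting error only. Classes with under 50 cells in a library are given as counts, or with their cell number beside the level.

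All 33 connexins had at least 1 UMI in the selected barcodes, but most of the signal came from few of them. 20 connexins reached 20 UMIs over the 4 libraries, where 69.7% of all genes did, and 13 stayed below. The 10 connexins with the highest level in any class held 97.4% of the 30739 connexin UMIs. These were cx32.2, cx43, cx28.1, cx39.4, cx43.4, gja5b, cx34.4, cx35.4, gja5a and gja3. Several of them shared classes, as the map of levels by class and library shows.

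**Figure D1:**
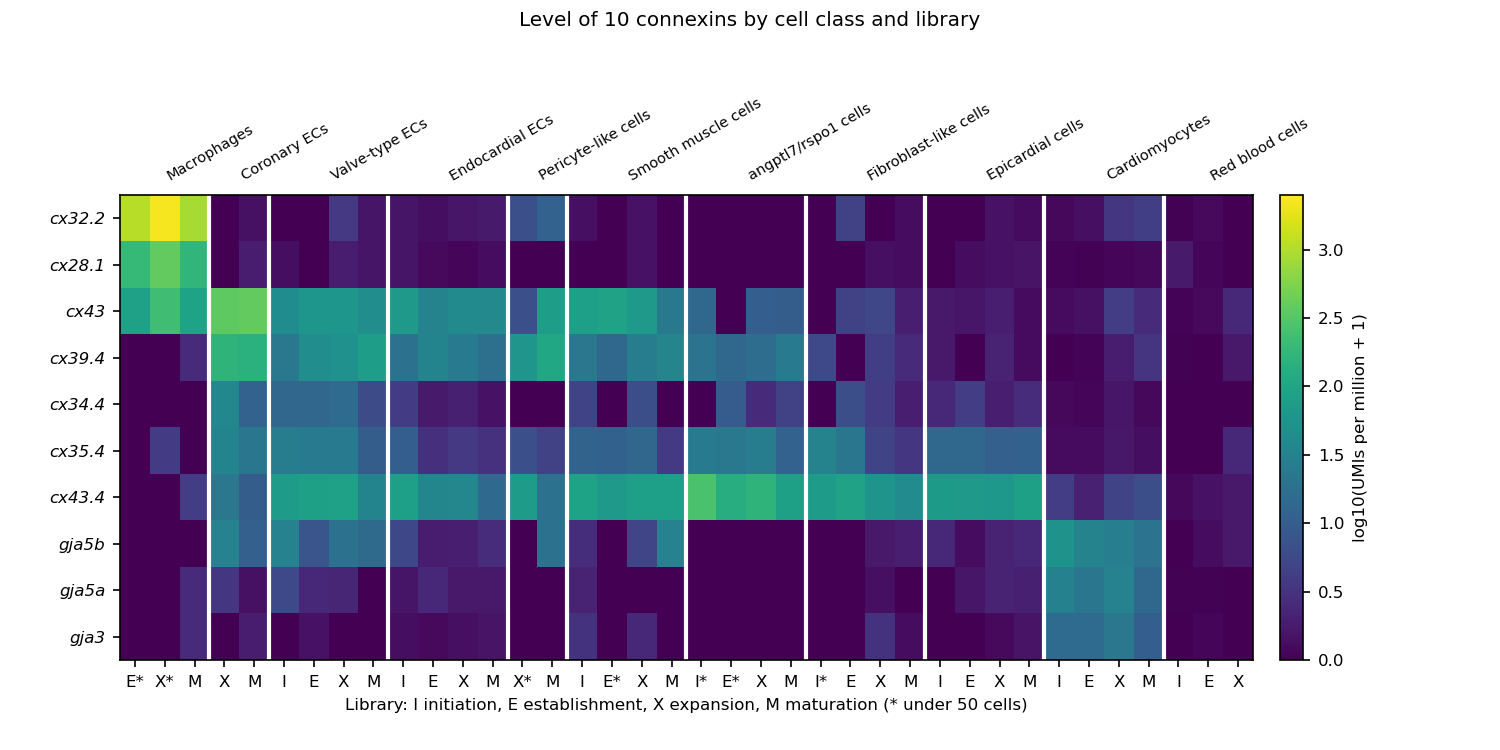
Level of the 10 leading connexins (rows) in each cell class and library (columns), as log10(CPM + 1), for classes with at least 20 cells in a library (stars mark those under 50). cx32.2 and cx28.1 stood out in macrophages, cx43 and cx39.4 in coronary ECs, and gja5a and gja3 in CMs. cx43.4 was spread over stromal and EC classes. gja5b was found in CMs, in coronary and valve-type ECs and, at maturation, in smooth muscle cells.

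The CM connexins were gja5b, gja5a and gja3. gja5a and gja5b are the zebrafish relatives of mammalian Cx40, which serves atrial and conduction tissue and arterial endothelium in mammals, and gja5b is known in zebrafish from the leopard pigment mutant. gja3 is a connexin of heart and lens. They were the first 3 connexins of CMs at all 4 stages, and gja5b alone made up 49.9%, 45.0%, 29.3% and 33.2% of the connexin UMIs of CMs at initiation, establishment, expansion and maturation. cx43, the zebrafish counterpart of the main connexin of the mammalian ventricle, had only 3, 12, 43 and 9 UMIs in 1050, 2030, 2063 and 1019 CMs. Its level in CMs lay between 0.254 and 3.18 CPM. In the free RNA of these libraries (barcodes with 10 to 100 UMIs) its level was 3.25 to 22.5 CPM. Globin UMIs put free RNA at 0.732%, 0.955%, 2.40% and 4.75% of the UMIs of CMs in order of stage. Free RNA adds only that share of its own level to CMs, so the levels in CMs and in free RNA are not directly comparable. Where the cx43 UMIs of CMs came from was not tested.

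gja5b had 53.0 (95% interval 48.9 to 57.3), 32.6 (30.5 to 34.8), 27.5 (24.8 to 30.5) and 18.9 CPM (15.5 to 22.8) in CMs in order of stage. Each stage was lower than the one before, and no intervals overlapped, although those of establishment and expansion lay next to each other. Without the CMs that carried the atrial gene myh6, described below, the level at initiation was 34.9 CPM (31.1 to 39.1), and the intervals of initiation and establishment (29.9 to 34.2) overlapped, as did those of establishment and expansion (25.0 to 30.8). gja5a had 30.6 (27.5 to 33.9), 20.5 (18.9 to 22.3), 30.9 (28.0 to 34.0) and 12.8 CPM (10.0 to 16.1) in the same order. Its level at expansion was as high as at initiation, so it followed no single direction. gja3 was likewise highest at expansion. It had 14.5 (12.4 to 16.8), 14.4 (13.0 to 15.9), 21.1 (18.7 to 23.7) and 9.27 CPM (6.94 to 12.1). The order of the 3 genes within CMs was gja5b, gja5a, gja3 at every stage but expansion, where the intervals of gja5a and gja5b overlapped. At maturation too the intervals of gja5b and gja5a overlapped, and those of gja5a and gja3.

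CMs of these pools were of more than 1 kind. CMs with at least 5 UMIs of myh6, the atrial myosin heavy chain of zebrafish, were 287 of the CMs at initiation (27.3%) and 43, 48 and 21 at the later stages (2.12%, 2.33% and 2.06%). At initiation, gja5b had 102 CPM in the CMs with myh6 (91.0 to 113) and 34.9 in the others (31.1 to 39.1), a ratio of 2.92 (2.49 to 3.42). At establishment the ratio was 1.99 (1.35 to 2.83), and at expansion and maturation, with 6 and 4 UMIs in the CMs with myh6, its interval included 1. gja5a did not separate the 2 kinds of CMs at initiation (31.2 CPM with myh6 and 30.4 without, ratio 1.03, interval 0.808 to 1.30). gja3 had 17.8 CPM in CMs with myh6 and 13.2 in the others at initiation, with an interval of the ratio from 0.962 to 1.87. At expansion its ratio was 0.269 (0.0324 to 0.980), on 2 UMIs in the CMs with myh6. The intervals of gja3 at establishment and maturation, and of gja5a at all later stages, included 1.

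cx36.7 showed the sharpest split. This gene, known as ftk from a zebrafish mutant with a defective embryonic heart, was a minor connexin of CMs as a whole, at 2.45, 1.60, 1.03 and 0.875 CPM. In CMs with myh6 it had 8.43, 23.9, 34.7 and 12.8 CPM in order of stage (27, 12, 12 and 2 UMIs), against 0.232, 1.19, 0.152 and 0.540 in CMs without myh6 (2, 32, 2 and 3 UMIs). The ratio was 36.4 (9.14 to 316), 20.2 (9.47 to 40.3), 229 (51.0 to 2107) and 23.7 (1.98 to 207) in order of stage. All 4 intervals lay above 1, although few UMIs stand behind the ratios and the limit of 5 myh6 UMIs was chosen with the data in view. cx43.4 went the same way at initiation, with 29 UMIs in CMs with myh6 (9.05 CPM) and 8 in the others (0.927).

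**Figure D2:**
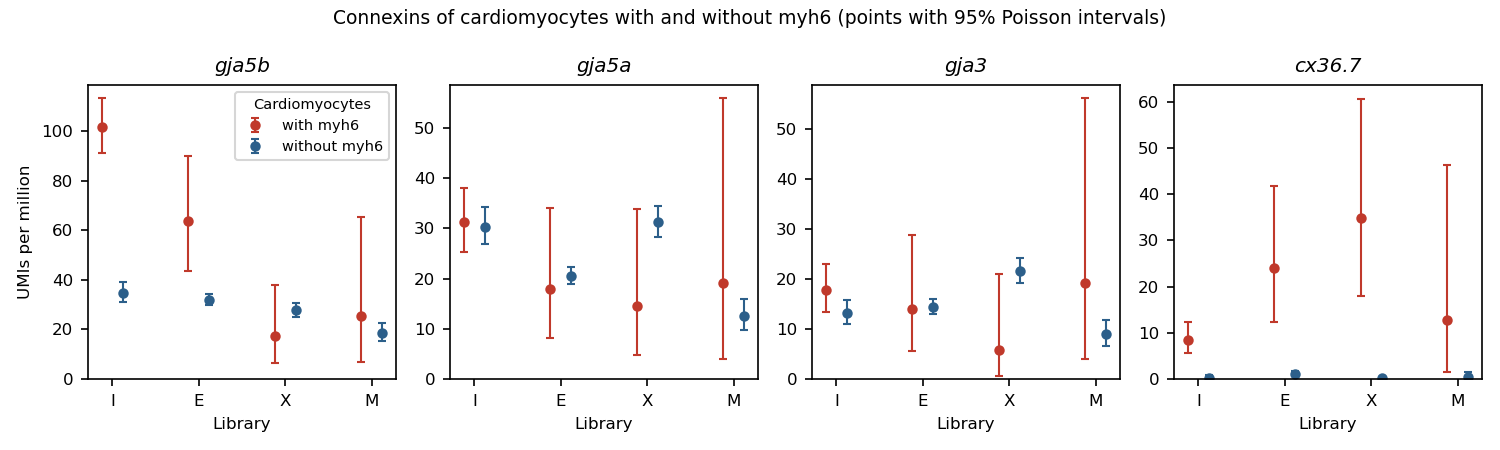
Levels (CPM) of gja5b, gja5a, gja3 and cx36.7 in CMs with at least 5 myh6 UMIs and in the other CMs, for the initiation (I), establishment (E), expansion (X) and maturation (M) libraries. Points are levels and bars exact 95% Poisson intervals. The bars of the 2 kinds stood apart for gja5b at initiation and establishment and for cx36.7 at initiation, establishment and expansion. At maturation the cx36.7 bars overlapped at their ends (1.55 to 46.2 with myh6, on 2 UMIs, and 0.111 to 1.58 without, on 3 UMIs). Without myh6, cx36.7 stayed at or under 1.19 CPM in each library.

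Between maturation and initiation, 6 connexins had at least 20 UMIs over both libraries in CMs. 3 of them were at least 2-fold lower at maturation, which 37.6% of all genes tested in CMs also were, and 1 was at least 2-fold higher, as 9.88% of genes were. gja5b stood at 0.357 of its initiation level (0.288 to 0.438), gja5a at 0.417 (0.320 to 0.538) and cx36.7 at 0.357 (0.108 to 0.932). The median of all genes in CMs was itself lower at maturation, by 0.63 on the log2 scale. Relative to that median gja5b was lower by 0.85 and gja5a by 0.63 (log2 -0.85 and -0.63), while gja3, at a ratio of 0.642 (0.462 to 0.878), lay at the median (log2 -0.01). Without the CMs with myh6, the gja5b ratio was 0.536 (0.425 to 0.672), which is within 2-fold, while gja5a kept 0.415 (0.314 to 0.542). cx43.4, within 2-fold over all CMs, was then 6.01-fold higher at maturation (2.70 to 15.1; 5.58 CPM at maturation and 0.927 at initiation). In free RNA it had 5.61 CPM at maturation and 6.53 at initiation. Over all CMs, epicardial, fibroblast and EC markers summed to 34.3, 31.5 and 71.2 CPM at maturation and 2.87, 3.97 and 25.5 at initiation. Smooth muscle markers went the other way, with 67.0 and 205. Their part in the cx43.4 difference was not tested. Without the CMs with myh6, cx36.7 had too few UMIs for the limit of 20, and its level was not lower at maturation in either kind of CMs. With myh6 it had 12.8 CPM at maturation and 8.43 at initiation. In the other CMs it had 0.540 at maturation and 0.232 at initiation, and the intervals overlapped in both kinds. The connexin that was higher was cx32.2, with 19 UMIs at maturation and 2 at initiation in CMs. Its level at maturation was 3.32 CPM, beside 3.12 in the free RNA of that library, which rested on 5 UMIs. Free RNA was estimated at 4.75% of the UMIs of these CMs, so it adds only that share of its own level. With free RNA subtracted, the counts of calls summed over classes stayed the same. Where the cx32.2 UMIs of CMs came from was not tested.

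The share of CM connexin UMIs that lay in selected barcodes also differed between libraries. For gja3 it was 88.8%, 80.8%, 71.0% and 35.3% of all its UMIs in the file, in order of stage, and for gja5b 93.9%, 88.5%, 77.6% and 49.1%. For cx43, a connexin of vessels, it stayed between 88.2% and 93.4%. In barcodes with at least 1000 UMIs and 300 genes, gja5a at maturation had 8.46 CPM in CMs in place of 12.8. How the CMs lost from the selection bear on the levels was not tested.

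Coronary ECs had the highest connexin level of all vascular classes. The class was gated on EC markers together with plvapb, abcg2a, pdgfd, cxcr4a, bcl6b, neurl1aa, nkd1, angpt2a and sox18, and held 15, 18, 104 and 238 cells, so levels are given for expansion and maturation. All connexins together had 653 (608 to 700) and 588 CPM (557 to 620) in coronary ECs, against 111 (108 to 115) and 78.7 (74.5 to 83.0) in endocardial ECs. The summed level of the 9 coronary markers was 2634 and 2204 CPM in coronary ECs and 76.1 and 66.2 in endocardial ECs, a difference that the gate itself sets. No connexin was among the markers. The coronary and valve-type lists came, however, from the study's markers of cell clusters in these same data. The classes are therefore not independent of the data in which the connexins were measured.

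cx43 made up 55.2% and 65.3% of the connexin UMIs of coronary ECs. It had 361 CPM at expansion (328 to 396) and 384 at maturation (359 to 410) in coronary ECs, against 41.4 (39.2 to 43.7) and 38.9 (36.0 to 41.9) in endocardial ECs. The ratio was 8.71 (7.80 to 9.71) at expansion and 9.87 (8.92 to 10.9) at maturation. In cells thinned to 2500 UMIs each, a cx43 UMI was found in 43.3% of coronary ECs at expansion (33.6% to 53.3%) and in 119 of 238 at maturation (43.5% to 56.5%), against 7.94% and 6.08% of endocardial ECs. Unthinned, the shares were 67.3% and 74.8% in coronary ECs, at median UMIs of 9435 and 7801, and 14.3% and 12.6% in endocardial ECs, at 4848 and 5350. T and NK cells served as a background: at maturation a cx43 UMI was found in 0 of 46 of them, which allows a share of up to 6.52%, a limit that the endocardial share at maturation did not clear. Larger classes of that library set lower limits, with 0 of 93 thrombocytes (up to 3.23%), 0 of 335 epicardial cells (0.896%) and 0 of 553 fibroblast-like cells (0.542%), and the endocardial share (interval 5.23% to 7.02%) lay above these. At expansion 0 of 131 red blood cells had one, which allows up to 2.29%.

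cx39.4, the zebrafish counterpart of mammalian Cx37 of arterial endothelium, was second. It had 162 (140 to 186) and 149 CPM (133 to 165) in coronary ECs at expansion and maturation, against 24.6 (22.9 to 26.3) and 17.2 (15.3 to 19.3) in endocardial ECs. The ratios were 6.59 (5.60 to 7.71) and 8.63 (7.37 to 10.1). cx34.4 and cx35.4 are beta-type connexins that lie next to each other in the RefSeq annotation of zebrafish (GRCz12tu). cx34.4 was 39.1-fold (24.3 to 63.8) and 23.6-fold (10.3 to 60.5) higher in coronary ECs, and cx35.4 12.3-fold (8.20 to 18.0) and 9.85-fold (6.25 to 15.7). gja5b, the CM connexin, was also found in coronary ECs, at 31.4 and 10.0 CPM, against 0.908 and 1.73 in endocardial ECs. With 1 more marker asked of each class, the endocardial levels at expansion were 1.51 for cx34.4 in place of 0.971 and 1.46 for gja5b in place of 0.908.

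At expansion 6 of 7 connexins tested were at least 2-fold higher in coronary ECs than in endocardial ECs, where 14.9% of all genes were, and 0 were at least 2-fold lower, where 16.8% were. At maturation it was 5 of 6, where 13.2% of genes were higher, and 0 lower, where 12.6% were. One of the 6 at expansion, gja5a, rested on 3 UMIs in coronary ECs (ratio 3.44, 0.661 to 11.4). The exception was cx43.4, with 21.5 CPM at expansion in coronary ECs and 36.9 in endocardial ECs (ratio 0.581, 0.378 to 0.856), and with an interval that included 1 at maturation (0.417 to 1.07).

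Within coronary ECs, cells were split by whether UMIs of arterial genes (efnb2a, unc5b and dll4) or of venous genes (sele, ephb4a and ephb4b) were more numerous, a split chosen after the class levels had been seen. cx43 had 418 and 454 CPM in the 65 and 141 arterial-marked cells of expansion and maturation, against 289 and 256 in the 34 and 78 venous-marked cells. The ratio was 1.45 (1.18 to 1.79) and 1.77 (1.50 to 2.10). For cx39.4 it was 2.50 (1.75 to 3.63) and 2.17 (1.62 to 2.94). gja5b had 38 UMIs in arterial-marked and 0 in venous-marked cells at expansion, which is at least 6.41-fold higher by the lower bound of the exact interval, and 21 against 2 at maturation (ratio 4.95, 1.21 to 43.6). cx34.4 did not separate the cells, with ratios of 0.849 (0.456 to 1.60) and 1.00 (0.410 to 2.68). Its RefSeq symbol is gjb10, which the study reports mainly in coronary veins and, by in situ hybridization, in main dorsal veins. The study kept capillary ECs apart, whereas the split by arterial and venous markers used here did not. The remaining 5 and 19 cells had equal or no UMIs of these markers, and there cx39.4 had 3 UMIs at expansion and 23 at maturation (190 CPM, 120 to 285, which overlaps the 177 CPM of arterial-marked cells, 156 to 200). cx43 and cx39.4 were thus higher in arterial-marked than in venous-marked cells but plentiful in both, while 38 of 38 and 21 of 23 gja5b UMIs lay in arterial-marked cells.

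**Figure D3:**
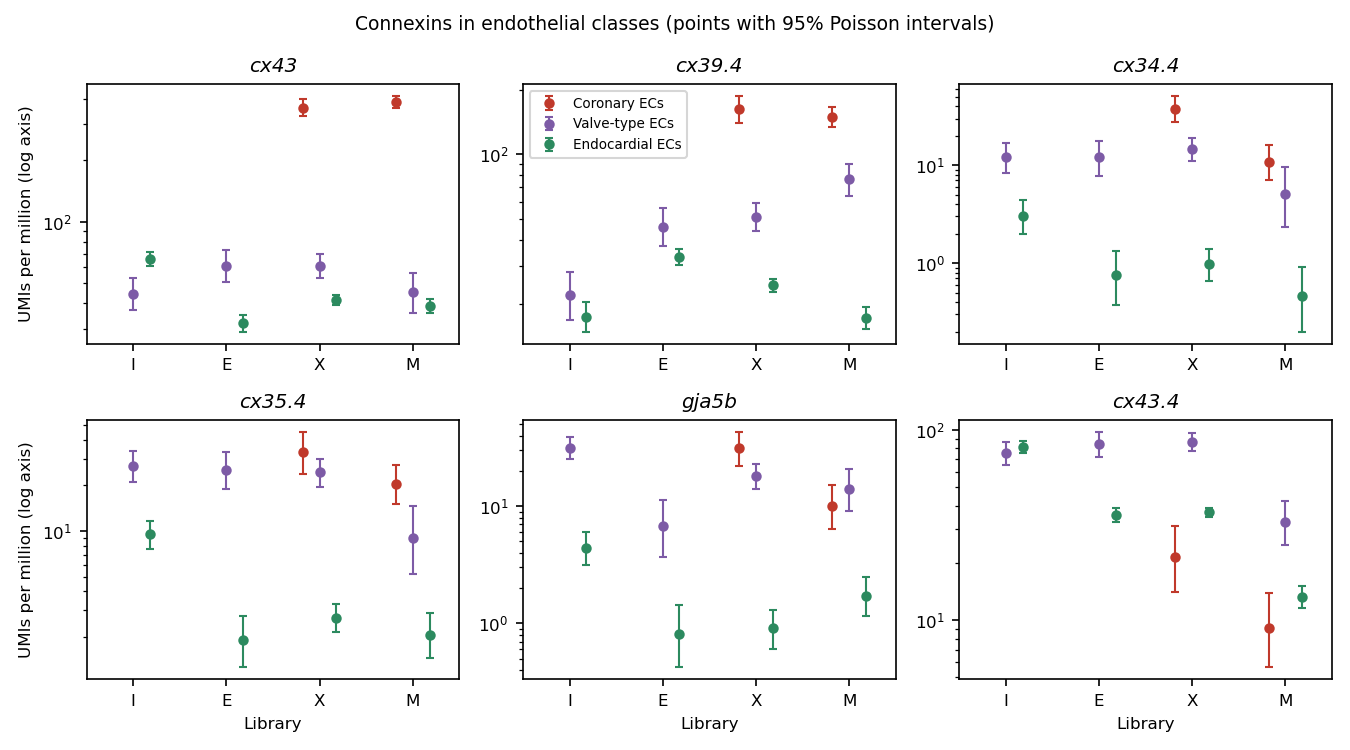
Levels (CPM, log axes) of 6 connexins in coronary, valve-type and endocardial ECs by library (I, E, X and M as above). Only classes with at least 50 cells in the library are drawn, and bars are exact 95% Poisson intervals. Coronary ECs stood highest for cx43 and cx39.4 but not for cx43.4, and valve-type ECs stood above endocardial ECs for cx34.4, cx35.4 and gja5b in each library.

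Valve-type ECs, gated on frzb, bmp3, celf5a, wnt9a, cdh4, adcy2b and ptn, shared several of these genes with coronary ECs. The class held 181, 146, 371 and 154 cells in order of stage. gja5b was 7.16-fold (4.89 to 10.6), 8.30-fold (3.56 to 19.6), 19.9-fold (12.7 to 32.0) and 8.18-fold (4.61 to 14.4) higher in valve-type than in endocardial ECs, and cx35.4 was 2.81-fold (2.04 to 3.87), 13.2-fold (8.19 to 21.7), 9.03-fold (6.64 to 12.3) and 4.36-fold (2.26 to 8.07) higher. In all, 3 of 6, 4 of 7, 6 of 8 and 4 of 5 connexins tested were at least 2-fold higher, where 7.89%, 9.14%, 12.4% and 13.3% of genes were. Among the 6 at expansion, cx32.2 rested on 10 UMIs in 0.539% of the valve-type cells (ratio 4.54, 1.89 to 10.3). 0 connexins were at least 2-fold lower at any stage, where 8.30%, 8.01%, 8.71% and 11.0% of genes were.

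cx39.4 in valve-type ECs had 22.1 (16.9 to 28.3), 46.0 (37.2 to 56.2), 51.1 (44.1 to 58.9) and 76.4 CPM (64.0 to 90.4) in order of stage. The middle stages overlapped, and the first and last stood apart from them. The ratio of maturation to initiation was 3.46 (2.55 to 4.76). At maturation its 135 UMIs lay in 39 of 154 cells, with up to 15 in 1 cell. As a mean over cells its level at maturation was 47.7 CPM, which lies within the intervals given above for the summed levels of the middle stages.

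Endocardial ECs, with 945, 1727, 5439 and 2847 cells in order of stage and the largest class at expansion and maturation, carried cx43, cx43.4 and cx39.4. cx43.4 is known in zebrafish embryos for its part in left-right patterning. It had 81.1 (75.4 to 87.1), 35.7 (32.7 to 38.9), 36.9 (34.9 to 39.1) and 13.3 CPM (11.7 to 15.1) in order of stage. It was thus highest at initiation, level between the middle stages and lowest at maturation, where its ratio to initiation was 0.164 (0.141 to 0.191). The share of endocardial ECs with a cx43.4 UMI, thinned to 2500 UMIs, was 17.6%, 7.64%, 7.50% and 2.63% in the same order (43.3%, 20.7%, 16.1% and 6.11% unthinned). In red blood cells the thinned share was 0.0538%, 0.203% and 0.763% at the first 3 stages. Among T and NK cells it was 1 of 20 at initiation (5.0%), 1 of 29 at establishment (3.45%), 0 of 47 at expansion and 0 of 46 at maturation. The last allows a share of up to 6.52%, a limit that the endocardial share at maturation did not clear.

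In endocardial ECs 4 of 6 connexins tested were at least 2-fold lower at maturation than at initiation, where 20.6% of genes were, and 0 were at least 2-fold higher, where 22.1% were. Besides cx43.4 these were cx34.4 (ratio 0.153, 0.0602 to 0.344), cx35.4 (0.219, 0.144 to 0.326) and gja5b (0.391, 0.236 to 0.642). All 4 were already lower at establishment than at initiation, with intervals that did not overlap: cx35.4 had 9.49 CPM at initiation and then 1.91, 2.69 and 2.07. cx39.4 was at the same level at maturation and at initiation (17.2 and 17.5 CPM, ratio 0.987, 0.812 to 1.20) but higher at establishment (33.2, 30.3 to 36.2). cx43 had 65.8 (60.7 to 71.2), 31.9 (29.0 to 34.9), 41.4 and 38.9 CPM in order of stage. The median mitochondrial share of endocardial ECs was 1.03% at initiation and 7.71% at maturation. The counts of calls summed over the 5 classes, 2 higher and 13 lower, were the same per 1000000 non-mitochondrial UMIs. The 8 CM markers summed to 4357 CPM in endocardial ECs at maturation and to 269 at initiation, and the 8 red blood cell markers to 127 at maturation and 1971 at initiation. ECs of no split were called endocardial, so valve-type cells that missed their gate would count here. The 7 valve markers summed to 140 CPM in endocardial ECs at maturation and 252 at initiation, and the 6 epicardial markers to 123 and 267. The part of all these markers in the result was not tested.

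In valve-type ECs 4 of 6 connexins were at least 2-fold lower at maturation, where 19.0% of genes were, and 1 was higher, where 19.0% were too. The 4 were cx34.4, cx35.4, cx43.4 and gja5b, with ratios between 0.339 and 0.447. The same 4 symbols were lower in endocardial ECs, and both comparisons rest on the same pair of libraries. In valve-type ECs the 7 valve markers summed to 5513 CPM at maturation and 1439 at initiation, the 8 CM markers to 2865 at maturation and 209 at initiation, and the 8 red blood cell markers to 65.6 at maturation and 1202 at initiation. Their part in these differences, that of cx39.4 included, was not tested.

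**Figure D4:**
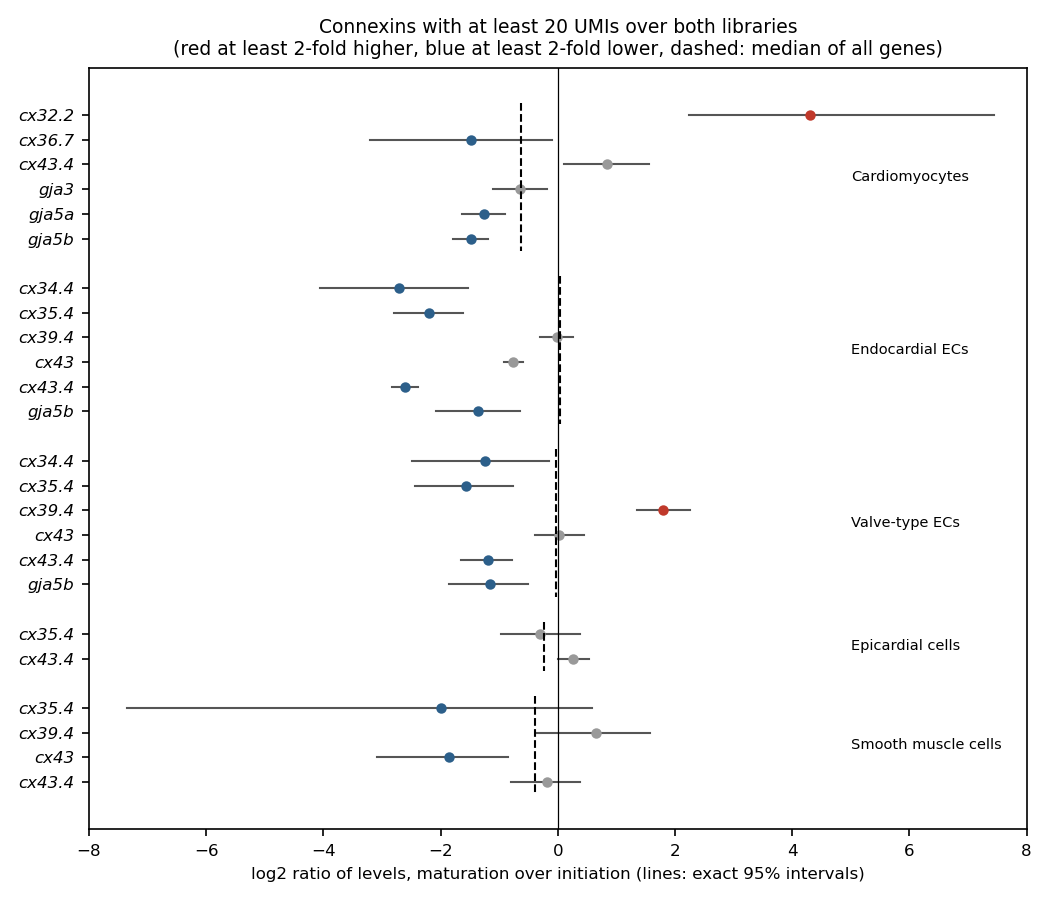
Ratio of levels, maturation over initiation, on a log2 scale for each connexin with at least 20 UMIs over both libraries, in the 5 classes with at least 50 cells in both. Horizontal lines are exact 95% intervals, dashed lines the median of all genes, and points are red or blue past 2-fold. cx43.4 lay far below the median in both EC classes (ratios 0.164 and 0.435) but not in epicardial cells (1.20), and gja3 lay on the median in CMs.

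cx43.4 was the main connexin of epicardial cells, although ECs and smooth muscle cells also had it at initiation (81.1 CPM in endocardial ECs, 75.4 in valve-type ECs and 93.1 in smooth muscle cells). Epicardial cells had 69.8 (60.4 to 80.3), 66.6 (58.1 to 76.1), 63.7 (56.4 to 71.7) and 84.0 CPM (75.3 to 93.5) in order of stage, between 75.1% and 83.1% of their connexin UMIs. These 4 intervals overlapped between neighbouring stages except for expansion and maturation, and 0 of 2 connexins tested in epicardial cells passed 2-fold in either direction (16.2% of genes were lower and 7.44% higher). cx35.4 was second in epicardial cells at each stage, at 12.8, 12.6, 10.2 and 10.4 CPM with overlapping intervals. The cells gated on angptl7 and rspo1 had the highest cx43.4 level of the classes with at least 50 cells at expansion, 161 CPM (131 to 195), and 84.7 (62.2 to 113) at maturation, where epicardial cells overlapped them. In the first 2 libraries, with 22 and 36 cells, 42 and 30 cx43.4 UMIs were counted. Fibroblast-like cells had 89.0 (65.6 to 118), 57.0 (48.5 to 66.6) and 42.9 CPM (36.1 to 50.6) from establishment on. cx40.8 had its highest level there, with 32 UMIs at maturation (9.74 CPM, 6.67 to 13.8) and 7 at expansion (2.53).

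Smooth muscle cells carried cx43 and cx43.4 side by side. In the initiation, expansion and maturation libraries cx43 had 81.8 (71.5 to 93.3), 65.9 (55.6 to 77.6) and 22.6 CPM (9.74 to 44.5), and cx43.4 had 93.1, 82.4 and 81.8 with overlapping intervals. cx43 stood at 0.276 of its initiation level (0.118 to 0.553) and cx35.4, with 1 UMI at maturation, at 0.25 (0.00614 to 1.50), so 2 of 4 connexins tested were at least 2-fold lower, where 30.8% of genes were, and 0 higher, where 12.1% were. Only 53 cells stand behind the maturation value, 8 cx43 UMIs were counted in them, and the summed level of the 6 smooth muscle markers differed as well (4601 CPM at maturation and 10009 at initiation). gja5b had 11 UMIs in 9 of the 53 cells (31.0 CPM), against 5 UMIs in 293 cells at initiation (1.82), and the 8 CM markers summed to 3492 CPM at maturation and 1838 at initiation. The part of either difference in these values was not tested. Pericyte-like cells passed 50 cells only at maturation, with 55 cells. There cx39.4 had 106 CPM (71.8 to 152) and cx43 78.0 (48.9 to 118), so that cx39.4 was not below cx43 as it was in coronary ECs. The 10 EC markers summed to 223 CPM in pericyte-like cells, against 4236 in coronary ECs, and 8 of the 9 coronary markers were at 0. The gates set part of this contrast, since barcodes that passed both EC and stromal gates were left out.

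Macrophages had a connexin set of their own. cx32.2 had 887 CPM at maturation (815 to 964, 78 cells), the highest level of any connexin in a class with at least 50 cells, and the next class, pericyte-like cells, had 10.6. cx28.1 had 170 CPM there (139 to 205), and thrombocytes, the next class, 2.91. With 5, 23 and 46 macrophages in the earlier libraries, 119, 279 and 762 cx32.2 UMIs and 20, 50 and 128 cx28.1 UMIs were counted. cx32.2 was present in 5 of 5, 22 of 23, 46 of 46 and 68 of 78 macrophages, with a median of 19, 9, 11 and 5 UMIs per cell, so the level did not rest on a few cells. Thinned to 2500 UMIs, 70.5% of macrophages at maturation had a cx32.2 UMI (59.1% to 80.3%), against 0 of 46 T and NK cells, which allows a share of up to 6.52%. cx28.1 UMIs amounted to 16.8%, 17.9%, 16.8% and 19.1% of the cx32.2 UMIs of macrophages in order of stage, a nearly constant proportion.

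cx43 was the third connexin of macrophages, with 1, 23, 76 and 58 UMIs. At maturation it had 91.9 CPM (69.8 to 119), above endocardial ECs (38.9). Of the macrophages with a cx43 UMI, 10 of 10, 29 of 29 and 30 of 33 also had a cx32.2 UMI from establishment on. Among all macrophages 22 of 23, 46 of 46 and 68 of 78 had a cx32.2 UMI, so most of this overlap was set in advance. cx43 and cx32.2 lie next to each other in the RefSeq annotation, and cx43 UMIs amounted to 8.24%, 9.97% and 10.4% of the cx32.2 UMIs in these libraries but to 0.840% at initiation, where 1 cx43 UMI was counted. The 10 EC markers summed to 76.5, 114 and 113 CPM in macrophages from establishment on, and at maturation to 125 in those with a cx43 UMI and 103 in those without. In macrophages of the same libraries the 9 coronary markers summed to 455, 562 and 166 CPM, with 7, 6 and 5 of them at 0. Whether reads of 1 gene were assigned to its neighbour was not tested.

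**Figure D5:**
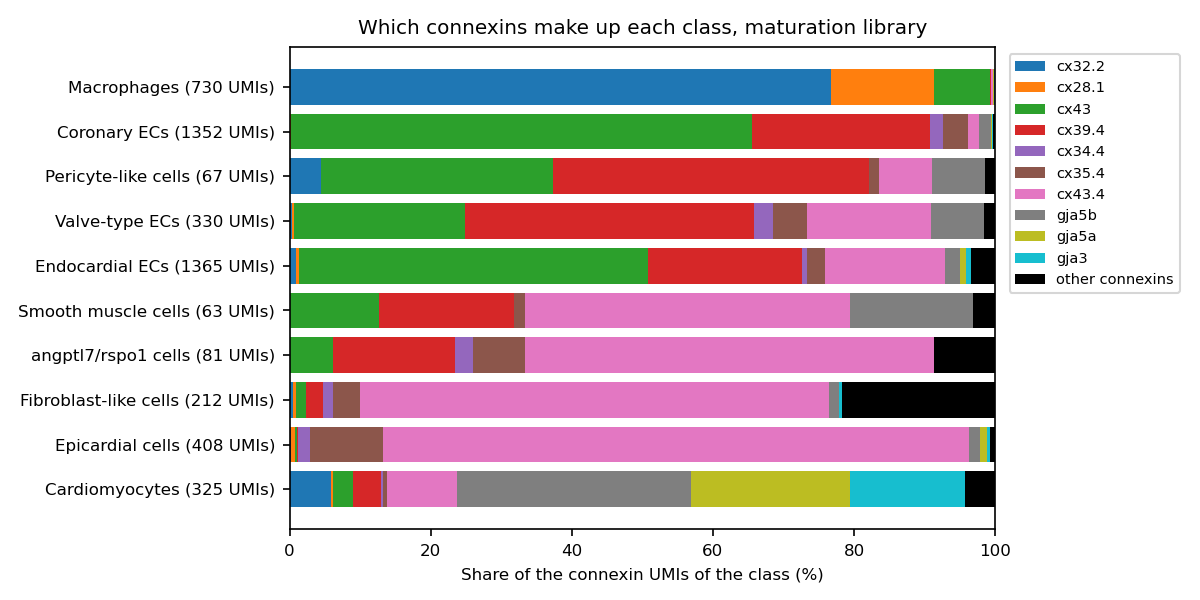
Share of each connexin among all connexin UMIs of a class in the maturation library (%), with the number of connexin UMIs of the class in brackets. cx32.2 made up 76.7% in macrophages, cx43 65.3% in coronary ECs and cx43.4 83.1% in epicardial cells, whereas CMs divided most of their UMIs among gja5b, gja5a and gja3.

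Red blood cells held almost no connexin RNA. The 33 connexins together had 2.52, 1.92 and 7.63 CPM in 3718, 1480 and 131 red blood cells, and T and NK cells at maturation had 0 connexin UMIs in 228415 UMIs. The largest count in red blood cells was of cx28.1 at initiation, 43 UMIs in 41 cells, where cx32.2 had 3. The 2 genes thus stood in another proportion than in macrophages of the same library (20 and 119 UMIs).

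A connexin was said to lead a class where its level was at least 2-fold that of every other class in each library in which it could be tested. 11 of 22 connexins with enough UMIs led a class, while 22.0% of all genes did. 6 of the 11 did so in at least 2 libraries: gja3, gja5a and gjd2b in CMs, cx34.4 and cx43 in coronary ECs and gjd1a in epicardial cells. gja3 was 5.85-fold to 29.7-fold and gja5a 6.62-fold to 14.1-fold above the next class over the 4 libraries. gjd2b, known from electrical synapses of neurons, reached only 0.291 and 0.517 CPM, and gjd1a 2.49 and 1.62. cx32.2 and cx28.1 led macrophages in the 1 library tested, and cx52.6, cx44.2 and cx52.9 led CMs or red blood cells on 5 or 6 UMIs in 1 library. With classes of at least 20 cells admitted, 7 connexins led a class, and gja3, cx43, gjd2b and cx52.6 no longer did. gja5b, cx39.4, cx35.4 and cx43.4 led no class, since each was shared between classes.

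The 23 connexins outside the 10 described in each library were low throughout. 10 of them reached 20 UMIs over the 4 libraries, with cx40.8 (208 UMIs) and cx36.7 (108 UMIs) the most abundant. None exceeded 9.74 CPM in a class with at least 50 cells. cx31.7 and cx32.3 had 1 UMI each in all selected barcodes. At 1 UMI a level cannot be compared between classes, and low counts limit such comparisons for the others.

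The genes whose pattern over 32 sums of class and library was most like that of the 3 highest connexins were sought among 15856 genes, as Pearson's r of log2(CPM + 10). For cx32.2 they were spi1a (r = 0.99), slc7a7 (r = 0.99) and CU499330.1 (r = 0.99), and for cx28.1 grn2 (r = 1.00), LOC100150882 (r = 0.99) and marco (r = 0.99), with 1 macrophage sum among the 32. marco is itself a marker of the macrophage gate. For cx43 they were plekhg5b (r = 0.87), pdgfba (r = 0.86) and cx39.4 (r = 0.86), of which cx39.4 is itself a connexin. The sums share libraries and cells of similar type, so these values describe the likeness and no more.

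Proteins that hold or accompany gap junctions were followed by a fixed list of 26 genes, of which 23 were in the files. Pannexins, which form channels in the membrane of single cells, were near 0: none of the 4 exceeded 3.92 CPM in any class. Among the zonula occludens scaffolds, which bind the tails of connexins, tjp1a was highest in coronary ECs (375 CPM at expansion and 298 at maturation), and tjp1b stood above tjp1a in CMs at initiation (103 and 71.2). At maturation the order in CMs was the other way, with tjp1b at 26.9 CPM and tjp1a at 37.1. cav1, a caveolin of vessels and stroma, was at 492 and 450 CPM in coronary ECs, and cav3, the muscle form, was at 71.5, 75.1, 50.1 and 28.2 in CMs. xirp1, a protein of the intercalated disc, had 881, 367, 505 and 234 CPM in CMs.

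In CMs 12 of 18 partner genes tested were at least 2-fold lower at maturation than at initiation and 0 were higher, beside the 37.6% and 9.88% of all genes given above. They were tjp1b, tjp3, jupa, dspa, cdh2, ctnna1, vcla, vclb, dsc2l, xirp1, cav3 and scn5lab. The lowest ratio was that of scn5lab, a cardiac sodium channel, with 20.3 CPM at maturation and 212 at initiation (ratio 0.0959, 0.0789 to 0.116). cdh2, the cadherin that joins CMs at the intercalated disc, had 51.4 CPM at maturation and 185 at initiation (ratio 0.279, 0.246 to 0.315). These ratios cover all CMs, of which 27.3% had myh6 at initiation and 2.06% at maturation. The part of that difference in the partner gene ratios was not tested. In endocardial ECs 3 of 19 partner genes were lower (ctnna1, vclb and scn5lab) and 3 higher (pkp2, vcla and cav3), beside 20.6% and 22.1% of all genes. vcla and cav3 had 22 and 24 UMIs at maturation and intervals that included 1. In valve-type ECs 2 of 15 were lower (ctnna1 and scn5lab) and 2 higher (jupb and pkp2), beside 19.0% of all genes in each direction. In smooth muscle cells 11 of 15 were lower and 0 higher, beside 30.8% and 12.1% of all genes, with 53 cells at maturation. In epicardial cells 1 of 15 was lower (pkp2) and 1 higher (xirp2a), beside 16.2% and 7.44%.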

How the data were processed

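The authors sequenced one 10x 3′ library per stage and deposited raw UMI counts per gene and barcode, before cell selection and without normalization. The study's processing notes name Cell Ranger 6.1.2 with GRCz11, while the matrix headers name 7.1.0. These versions can differ in whether intron reads are counted, which would change the counts. The annotation was the v4.3.2 set of Lawson and colleagues.

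UMIs were summed per class and library (Python 3.11.15, NumPy 2.4.6, pandas 2.3.3, SciPy 1.17.1). A class needed at least 3 of its markers with UMIs (4 for pericyte-like cells, 2 for a list of 2), and, except for CMs and red blood cells, more marker UMIs than 25% free RNA would give (Poisson tail under 0.0001). CMs needed 1% and red blood cells 10% of their UMIs in their markers. ECs and stromal cells went to the split with the largest fraction of its list detected, and ECs of no split were called endocardial. Of 104 markers 103 were found. No doublet caller was run. The limits were set on marker and total UMIs. The members and lists were chosen with earlier results of these data known.

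Ratios were called at 2-fold with at least 20 UMIs over both sums, and class-leading genes needed at least 5 UMIs. Ratio intervals are exact conditional binomial intervals. The 10 connexins with the highest level in any class of at least 50 cells were named by rule, and cx36.7, cx40.8, gjd1a and gjd2b were named after their values were seen. Cells were thinned by hypergeometric draws. A count of 0 was read as up to 3 counts. Scripts were tested on simulated data. Symbols of 31 of 33 connexins matched RefSeq, whose order of genes was used but no coordinates, since its build differs. Neighbouring copies can share reads, so their split is uncertain. No sequences were used here. Alternatives are given in the closing section.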

Additional observations from a re-analysis of the deposited data

How the results depend on the processing

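No paired analysis was possible because each stage is 1 library without replicates. For the same reason no replicate could be left out. The count of connexins with at least 20 UMIs stayed within 18 to 21 under the 11 alternatives that recompute it. It covers all selected barcodes, so alternatives that change only the gate or the scale could not move it. These were barcodes of several classes kept, 1 more marker per class, non-mitochondrial UMIs, free RNA subtracted and a mean over cells. The cx43 ratio of coronary over endocardial ECs at maturation, 9.87, was 8.77 with at least 5000 UMIs and 1000 genes, 8.82 with 1 more marker per class and 11.1 without the 5% of cells with the most UMIs, an alternative chosen after seeing the data. Calls of a connexin in a class were summed over classes, so that the same connexin can count more than once. 2 calls were at least 2-fold higher and 13 at least 2-fold lower at maturation. The higher count was 4 with at least 1000 UMIs and 300 genes, 7 with barcodes of several classes kept, 6 with 1 more marker per class and 1 as a mean over cells. Without the minimum of 20 UMIs the counts of calls were 32 and 42. The shares of all genes given above for each class belong to the main setting only. The 11 class-leading connexins became 7 when classes of at least 20 cells were admitted, also chosen after seeing the data, and cx43 and gja3 were then among those lost. In CMs, low levels moved most: cx43.4 at establishment, 1.05 CPM, was 2.73 with barcodes of several classes kept and 2.70 as a mean over cells, and at maturation, 5.60, it was 10.8 with at least 5000 UMIs and 2.80 with at least 1000. cx35.4 in valve-type ECs at expansion, 24.3, was 15.3 as a mean over cells and 14.1 without the 5% of cells with the most UMIs, and in endocardial ECs at initiation, 9.49, it was 6.27 as a mean over cells. The causes were not tested. Subtracting free RNA, estimated from globin UMIs, left all 102 levels within their intervals. Without thinning, 46 of 47 shares were outside the interval of the thinned share. Depth limits the 13 connexins under 20 UMIs and the classes of few cells.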
